A study of Mus musculus with 31 samples.

Results

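Neonatal single positive CD8 thymocytes (SP8) and naive CD8 T cells of the neonatal spleen (CD8) were compared to describe which genes and pathways differ between the last thymic stage and the peripheral cell in the first week of life. The 2 groups were chosen by their labels and held 4 libraries each, 8 of the 31 libraries of a series that profiled polyadenylated RNA at 4 stages of T cell development in neonatal and adult mice. All mice were C57BL/6, an inbred strain, and no treatment was given. Neonates were 5 to 7 days old and adults 12 weeks. SP8 cells were the thymocytes that were not held by CD4 beads but were held by CD8a beads, and splenic cells were held by CD8a beads, after which each population was sorted by flow cytometry. The series names antibodies to CD4, CD8, CD44 and CD25 for its thymocyte sorts. The replicates are called biological replicates, but nothing says whether a library came from 1 animal or from pooled animals, so p-values measure the spread between these libraries. The adult SP8 and CD8 groups, 4 libraries each, served for 1 further test, of whether the neonatal change differed from the adult one, and the neonatal double negative (DN) and double positive (DP) thymocytes served to place levels.

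A thymocyte that has passed selection stops expressing the recombination machinery, downregulates CD24, takes up the transcription factor KLF2 and leaves the thymus through the sphingosine-1-phosphate receptor S1PR1, whose gene KLF2 activates. CCR7 then helps to guide it into lymph nodes, and interleukin 7 signals keep it alive as a resting cell. Cells that carry CD8 without CD4 also include immature, cycling thymocytes on their way from the DN to the DP stage, which have not yet rearranged their T cell receptor alpha chain. Neonatal CD8 T cells are known for dividing and acquiring effector features more readily than adult ones.

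The neonatal SP8 libraries held 19662682 ± 2397955 counts (SD, n = 4) and the neonatal CD8 libraries 15066313 ± 1489181 (n = 4), with a lowest total of 12883293 and a highest of 23054677. Levels are given as CPM (the count of a gene scaled to a common library total) after trimmed-mean (TMM) scaling of libraries, and a group in which each library held 3 counts or fewer was treated as at the detection floor. Replicates correlated across genes with Pearson's r from 0.979 to 0.99, on log2 CPM. Neonatal CD8 replicate 4 stood apart. In it, 2.43% of counts lay in Lars2, Mir6236 and Gm15564, loci at which fragments of ribosomal RNA can align, against 0.0253% to 0.12% in the other 7 libraries. Both libraries numbered 4 also held traces of placental transcripts, with Prl3b1 at 2.06 CPM in SP8 and 5.38 CPM in CD8 and at most 0.462 CPM in the other 6 libraries.

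Of 16461 genes tested, 9294 (56.5%) passed edgeR's quasi-likelihood test at a Benjamini-Hochberg adjusted p-value below 0.05. Of these, 4509 (27.4% of the genes tested) were higher in CD8 and 4785 (29.1%) were lower, and the median log2 fold change over the genes tested was 0.03. A change of at least 2-fold was met by 1627 genes that rose (9.88%) and 2226 that fell (13.5%). Libraries of the 2 groups did not overlap for 3993 genes higher in CD8 (24.3%) and 4487 lower (27.3%). Which direction held more calls depended on the setting. Higher in CD8 were 48.5% of calls in the fit given here, 50.8% with DESeq2 size factors, 50.9% with DESeq2, 53.1% without neonatal CD8 replicate 1 and 52.9% of 9045 calls without neonatal CD8 replicate 4. Because more than 1 in 2 genes passed, a list's count is read below against these shares. In bulk RNA, fewer cells of a type and less RNA per cell cannot be told apart. The 30 gene lists hold 700 different genes, and 1 gene can stand in several.

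**Figure D1:**
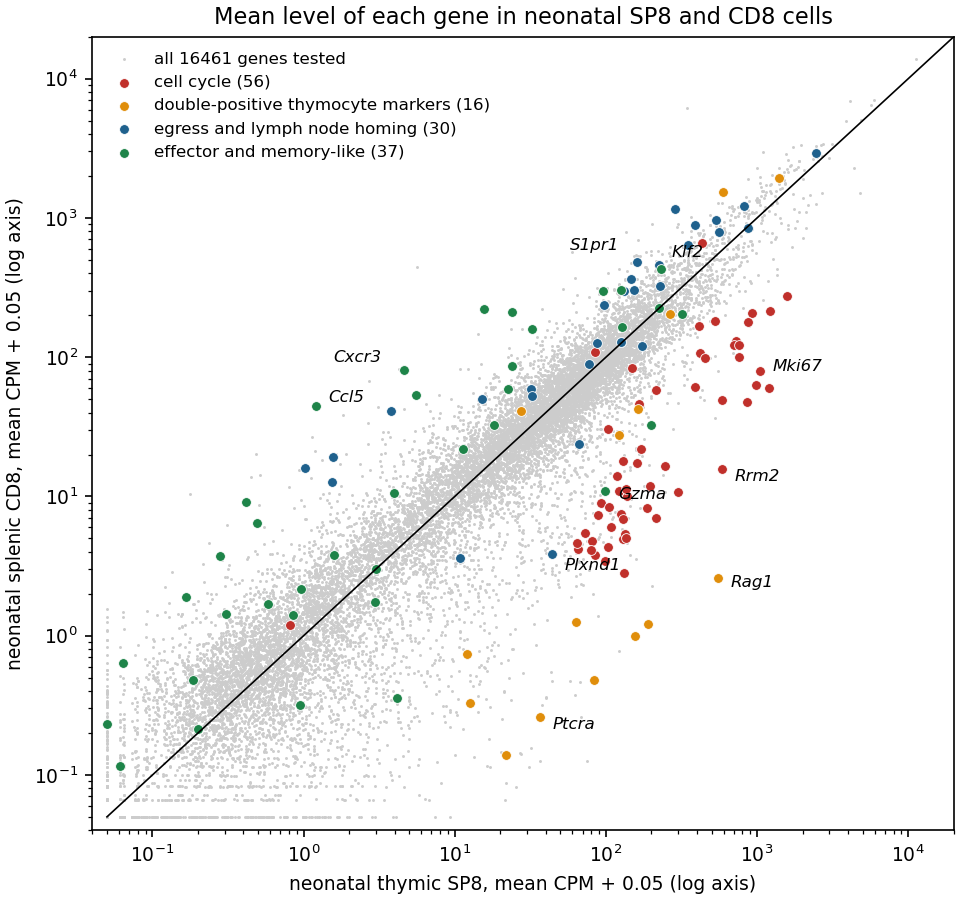
Mean CPM of each of the 16461 tested genes in neonatal SP8 (horizontal) and neonatal CD8 (vertical), both with 0.05 added and on log axes; the line marks equal levels and colours mark 4 gene lists. Cell cycle genes and markers of the DP stage lie below the line, for example Rag1 at 552 and 2.53 CPM, and most egress and effector genes lie above it, for example Ccl5 at 1.16 and 44.4 CPM.

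Both groups were taken with CD8a beads and held Cd8a and Cd8b1 RNA, and they differed in genes of earlier thymic stages. Neonatal DP cells held both CD8 genes as well, at 2808.6 ± 159 and 1564 ± 112 CPM (SD, n = 4), so these genes do not set SP8 and CD8 apart from DP. Cd8a, the CD8 alpha chain, stood at 1417, 1340.2, 1419 and 1372 CPM in the SP8 libraries and at 1941, 1901, 1977 and 1947 CPM in the CD8 libraries, and the groups did not overlap. Cd8b1 rose from 598 ± 18.6 to 1531 ± 76.8 CPM (SD, n = 4 each), a log2 fold change of 1.36 (SE 0.10, edgeR adjusted p = 5.22e-14). Cd4 was low in both, at 12.0 ± 1.91 CPM in SP8, which was 0.740% of the mean in neonatal DP cells, and at 0.694 ± 0.594 CPM in CD8. Of 16 markers of the DP stage, 12 fell, 3 rose (Cd8a, Cd8b1 and Cd1d1) and 1 did not pass, with a median of -4.73. The CD8 level of the recombination genes was low, and at the floor for Rag2 but not for Rag1. Rag1, which makes the cuts of receptor gene rearrangement (ENSMUSG00000061311, GENCODE M21 on GRCm38, chr2:101638282-101649501, minus strand), was at 647, 592, 481 and 489 CPM in SP8 and at 5.62, 2.22, 0.396 and 1.88 CPM in CD8. Its log2 fold change was -7.76 (SE 0.35, edgeR adjusted p = 2.87e-16). Its partner Rag2 was at least 102-fold lower in CD8, where no library held more than 3 counts. The log2 fold change was -7.35 for Dntt, the terminal transferase that adds untemplated bases, and -7.41 for Ptcra, the pre-T cell receptor alpha chain.

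Set against the other thymic stages, the SP8 libraries did not scale all of these genes alike. Rag1 and Rag2 stood in neonatal SP8 at 7.26% and 8.76% of their DP means. Ptcra stood at 91.8% of its DP mean, and its DN mean was higher, at 76.8 ± 4.32 CPM against 36.8 ± 3.87 CPM in SP8. Mki67, a proliferation marker, was at 1042 ± 140.0 CPM in SP8, 902 ± 129 CPM in DN and 193 ± 32.8 CPM in DP. Trdc, the constant gene of the T cell receptor delta chain, which is deleted when the alpha locus rearranges, was at 81.2 ± 4.8 CPM in SP8, 31.4 ± 4.26 CPM in DP and 8.90 ± 0.837 CPM in CD8. The share of immature CD8-bearing thymocytes in the SP8 sort was not measured, and its part in the changes below was not tested. Klf2 and S1pr1 were in the SP8 libraries as well, far above their DP means of 3.81 and 0.377 CPM.

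**Figure D2:**
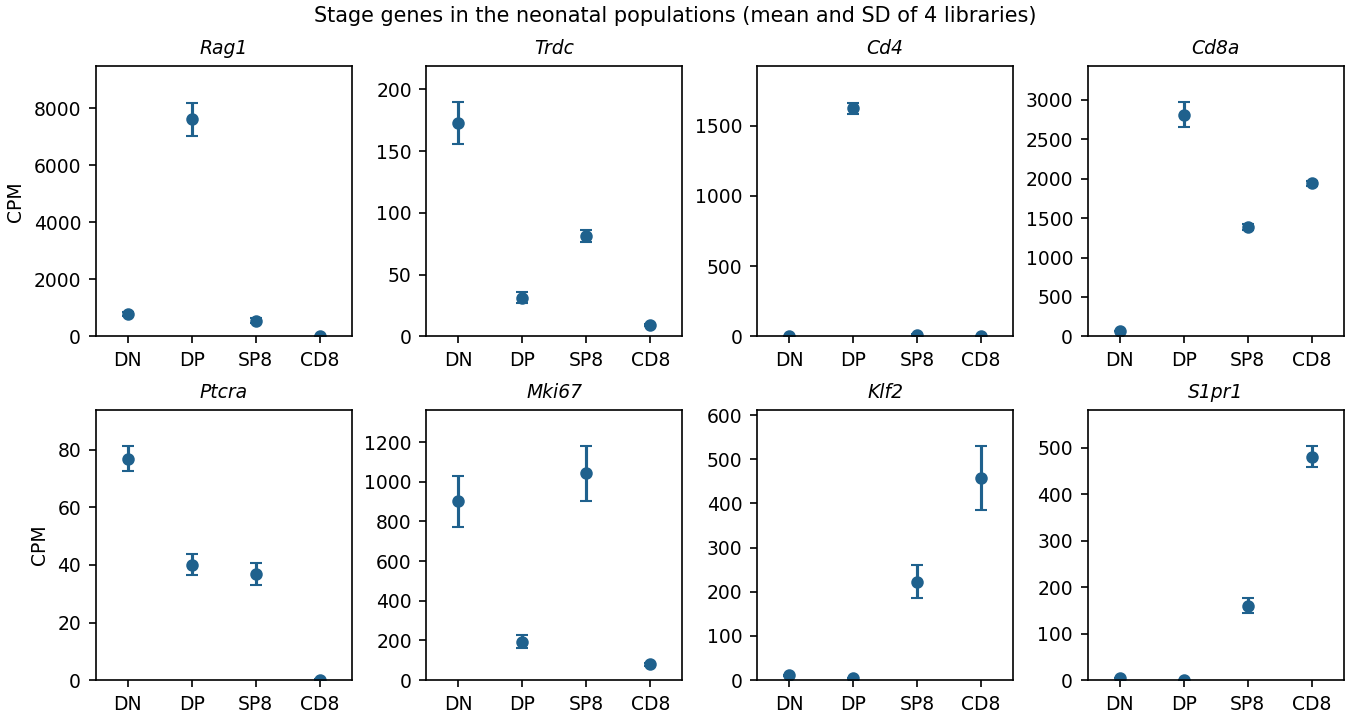
CPM of 8 stage genes in the 4 neonatal populations in the order DN, DP, SP8 and CD8 (points, mean; bars, SD of 4 libraries; each panel has its own axis from 0). Rag1 and Cd4 are highest in DP, Mki67 is high in DN and SP8 (902 and 1042 CPM), and Klf2 and S1pr1 are low in DN and DP and highest in CD8.

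Genes of thymic exit and lymph node homing were mostly higher in the spleen. Of 30 tested members, 24 rose and 4 fell, with a median log2 fold change of 0.88. Klf2 (ENSMUSG00000055148, chr8:72319033-72321656, plus strand) was at 186, 195, 259 and 252 CPM in SP8 and at 363, 437, 519 and 509 CPM in CD8. The groups did not overlap, and the log2 fold change was 1.03 (SE 0.17, edgeR adjusted p = 7.04e-06). S1pr1 (ENSMUSG00000045092, chr3:115710433-115715072, minus strand) was at 175, 139, 169.6 and 155 CPM in SP8 and at 472, 454, 497 and 502 CPM in CD8, a log2 fold change of 1.59 (SE 0.11, edgeR adjusted p = 2.57e-14). The second lymphocyte receptor of this lipid, S1pr4, rose by 1.17 (SE 0.12), and of the enzymes that degrade it, Sgpl1 rose by 0.71 (SE 0.12).

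Ccr7, the lymph node homing receptor, was at 247, 209.7, 234 and 222 CPM in SP8 and at 323, 317, 332 and 321 CPM in CD8. The groups did not overlap, and the log2 fold change was 0.50 (SE 0.11, edgeR adjusted p = 0.000308). Receptors for inflamed or follicular tissue were low in SP8 and changed more. Cxcr3 went from 4.56 ± 1.67 to 80.3 ± 10.5 CPM and Cxcr5 from 0.974 ± 0.324 to 16 ± 2.87 CPM. Cd55, a complement regulator found on T cells that are ready to leave, rose by 3.46 (SE 0.16). Members that fell were Plxnd1, a semaphorin receptor that guides thymocytes to the medulla (43.7 ± 4.93 to 3.84 ± 1.25 CPM), Ccr4, Cxcr4 and Itgb1. Ccr9, the gut and thymus homing receptor, did not pass, with 126 ± 16.3 CPM in SP8 and 128 ± 18.2 CPM in CD8. In adults it was 292 ± 19.6 CPM in SP8 and 137 ± 3.70 CPM in CD8, and the difference between the ages passed (log2 1.13, SE 0.16, edgeR adjusted p = 4.08e-06). Cxcr4 fell in neonates by 1.48 and was 63.6 ± 15.6 and 74.3 ± 27.0 CPM in adult SP8 and CD8. That difference between the ages was -1.70 on the log2 scale (SE 0.28, edgeR adjusted p = 0.000116).

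**Figure D3:**
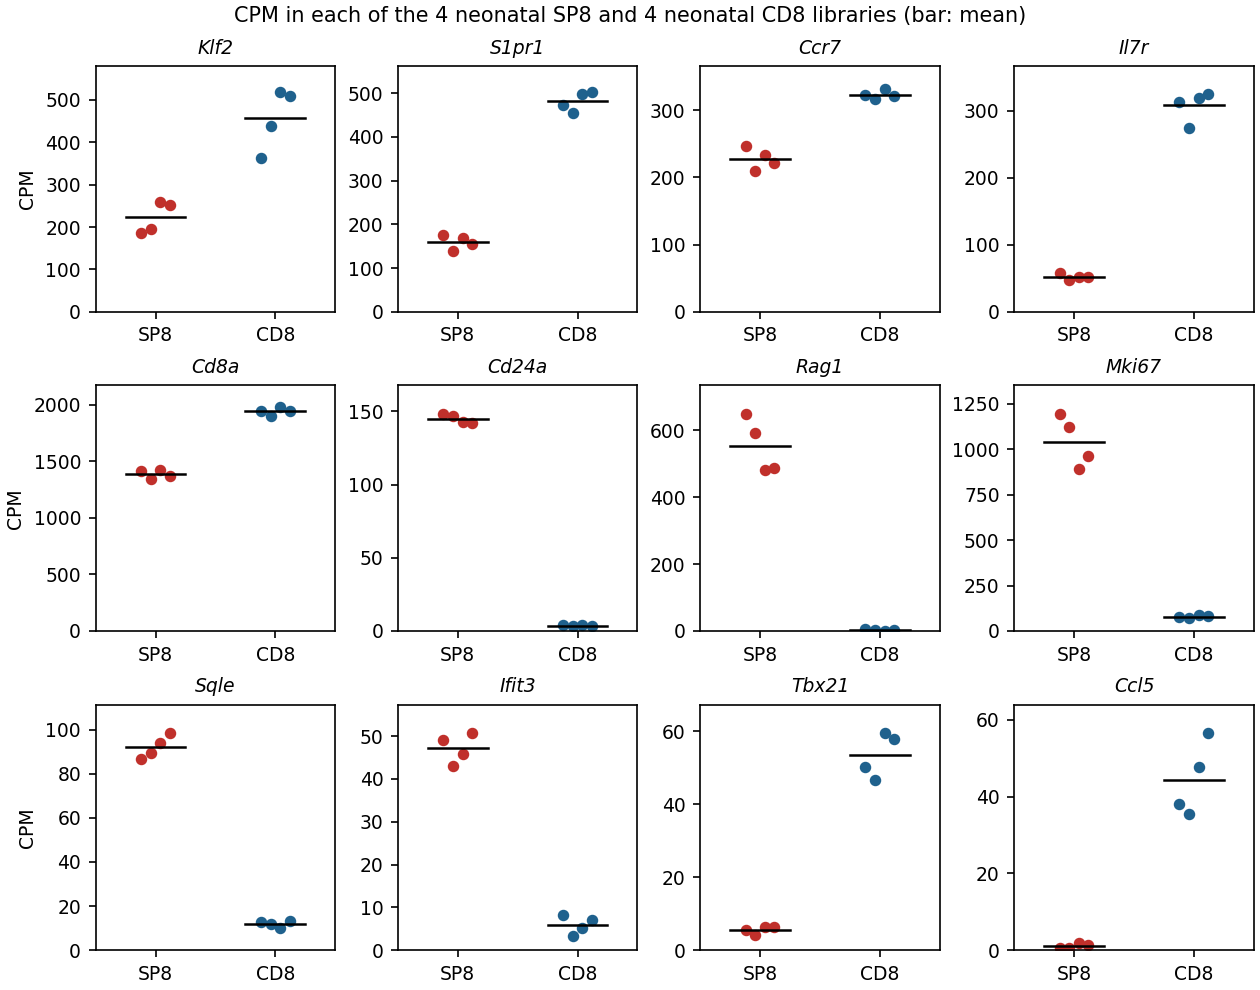
CPM of 12 genes in each neonatal library (points; bar, mean of 4), SP8 on the left and CD8 on the right of each panel, with axes from 0. The 2 groups do not overlap in any panel: S1pr1, for example, lies between 139 and 175 CPM in SP8 and between 454 and 502 CPM in CD8, and Cd24a between 142 and 148 CPM and between 3.42 and 4.00 CPM.

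Markers of the final maturation steps of single positive cells moved both ways, 17 of 36 up and 12 down, against 27.4% and 29.1% of all genes. The share that fell was near that of all genes. Il7r, the interleukin 7 receptor alpha chain, was at 57.3, 46.9, 51.8 and 52.4 CPM in SP8 and at 313, 274, 319 and 325 CPM in CD8, a log2 fold change of 2.56 (SE 0.12, edgeR adjusted p = 9.83e-19). Cd24a, the heat-stable antigen of immature thymocytes, was at 148, 147, 143 and 142 CPM in SP8 and at 4.00, 3.62, 3.90 and 3.42 CPM in CD8. The groups did not overlap. Ly6c2, a late maturation antigen whose counts can be shared with near-identical Ly6 genes, rose by 3.13 (SE 0.18). Nrp1, high in recently selected thymocytes, fell by 4.64 (SE 0.16) and Sox4, an early T lineage factor, by 1.77 (SE 0.11). Sox4 fell further in adults, from 242 ± 26.9 to 21 ± 2.56 CPM, against 220.1 ± 16.3 to 64.3 ± 11 CPM in neonates (difference 1.75, SE 0.15, edgeR adjusted p = 2.05e-10). The transcription factor genes Tcf7 and Satb1 fell by 0.53 and 0.52, Runx3 and Bach2 rose by 0.59 and 0.80, and Bcl11b and Lef1, at -0.24 and 0.21, did not pass.

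Nearly all cell cycle genes were lower in the spleen. Of 56 tested members, 53 fell, Cdc25b and Ccnd2 rose and Ccnd1 did not pass, with a median log2 fold change of -3.59, and the same 53 to 2 split was counted with each of the 8 libraries left out in turn. The summed level of the list was 19502 to 20549 CPM in SP8 and 3386 to 3715 CPM in CD8. Mki67 (ENSMUSG00000031004, chr7:135689784-135716361, minus strand) was at 1195, 1121, 890.4 and 963 CPM in SP8 and at 74.3, 73.2, 86.1 and 82.4 CPM in CD8, a log2 fold change of -3.72 (SE 0.33, edgeR adjusted p = 4.60e-10). Genes of DNA synthesis ranged from Rrm2, the ribonucleotide reductase subunit M2, at -5.25 (SE 0.24) to the replicative helicase subunits, of which Mcm5 was lowest at -2.91 and Mcm4 highest at -2.19. Of the mitotic genes, Ccna2, Cdk1 and Plk1 were at -4.96, -4.88 and -4.59 and Ccnb2 at -3.20, all within the range of the DNA synthesis genes. The G1 kinases Cdk4 and Cdk6 fell by 1.30 and 0.83, while Ccnd2, the D-type cyclin induced by cytokines and antigen, rose from 429.9 ± 65.8 to 660.0 ± 86.6 CPM.

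Promoter windows of the cell cycle list, from 250 bases before to 50 after the annotated start (RefSeq, GRCm38.p6), were searched on both strands for CCAAT, the site of the factor NF-Y, and TTTGAA, a form of the cell cycle homology region bound by complexes that repress mitotic genes in resting cells. RefSeq windows matched 43 of the 56 genes, in 49 windows. CCAAT was in 36 windows (73.5%, against 37.4% of all 32851 windows of the same length) and TTTGAA in 17 (34.7%, against 17.9%). CACCC, the box read by KLF factors, was in 68.2% of 22 windows of the egress list and in 57.5% of all windows. Ccnb2, Cdc20, Top2a and Mki67 were among the genes that hold both kinds of letters before the start. The stretches of Ccnb2 and Cdc20, both genes of mitosis, are shown as examples, with the letters in capitals. A match describes letters only. They run 5′ to 3′ in the sense of the gene and end 9 bases and 1 base before the start, at chr9:70421563-70421729 and chr4:118437344-118437404, both on the minus strand.
Ccnb2: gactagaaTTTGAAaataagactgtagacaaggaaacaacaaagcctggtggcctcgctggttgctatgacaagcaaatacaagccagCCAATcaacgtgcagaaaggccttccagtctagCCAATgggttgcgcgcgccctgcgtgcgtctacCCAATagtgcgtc
Cdc20: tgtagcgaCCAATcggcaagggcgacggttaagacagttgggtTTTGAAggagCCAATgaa
Ccnb2, which showed 3 CCAAT boxes behind a TTTGAA, was at 146, 162, 165 and 169 CPM in SP8 and at 18.4, 15.6, 19.5 and 16.2 CPM in CD8, and Cdc20 fell by 2.95 (SE 0.15).

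The neonatal fall of the cell cycle list was smaller than the adult one for many members. The test of the age difference called 25 of 56 in the direction of a smaller neonatal fall or larger rise and 6 in the other (11 with the replicate number as a block), against 10.2% and 5.15% of all genes. Ccnb2 was at 17.4 ± 1.86 CPM in neonatal CD8 and 1.14 ± 0.692 CPM in adult CD8, with SP8 means of 160 and 71.9 CPM (difference 2.76, SE 0.28, edgeR adjusted p = 1.42e-08). Mki67 was at 79.0 ± 6.24 and 5.77 ± 3.74 CPM in neonatal and adult CD8 (difference 2.78, SE 0.47). Kif14, Kif4, Bub1, Pif1 and Ska1, genes of mitosis and genome upkeep, were among the 8 highest fitted age differences. For Kif14, Pif1 and Ska1 adult CD8 was at the floor, and with that group set at its floor of 0.204 CPM the differences of log2 mean CPM were at least 3.30, 2.56 and 0.63. The fitted differences of Kif4 and Bub1, 4.11 and 3.97, rest on adult CD8 means of 0.130 and 0.122 CPM, which are also under that level.

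Genes of quiescence rose beside this. Of 24 cell cycle inhibitors and quiescence factors, 16 rose and 5 fell, against 27.4% and 29.1% of all genes. Btg1, an antiproliferative factor, was at 179, 213, 211 and 196 CPM in SP8 and at 511, 572, 589 and 631 CPM in CD8. Txnip, an inhibitor of glucose uptake, rose by 1.78 (SE 0.11) and Pik3ip1, an inhibitor of PI3 kinase, by 1.83 (SE 0.10). Cdkn1b, the inhibitor p27, rose by 0.79 (SE 0.08), whereas Cdkn2c, the inhibitor p18, fell from 72.3 ± 1.06 to 6.96 ± 1.05 CPM. Foxo1, an activator of Klf2 and Il7r, rose from 152 ± 11.2 to 304 ± 13.0 CPM.

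Genes of ribosome biogenesis and oxidative phosphorylation were mostly lower in the spleen, by small amounts. Of 32 ribosome biogenesis genes 25 fell and none rose, with a median of -0.40 and Pa2g4 lowest at -1.25 (SE 0.08). Of 43 subunits of oxidative phosphorylation 35 fell and 1 rose (Ndufa6), with a median of -0.45 and no member changed by 2-fold. Glycolysis genes were divided, with 14 of 25 down and 6 up, against 29.1% and 27.4% of all genes, so the share that rose was near that of all genes. Gapdh fell from 1999.9 ± 175 to 715 ± 39.4 CPM and Tpi1 by 2.01 (SE 0.12). The glucose transporter Slc2a3 rose by 0.90 and Pdk1, a pyruvate dehydrogenase kinase, rose by 1.27 (SE 0.08). Fatty acid oxidation genes passed in 4 of 19 members in each direction, less often than all genes (27.4% up and 29.1% down), with Cpt1a, the entry enzyme, up by 0.61 (SE 0.15). Among heat shock genes 5 of 15 fell and 3 rose, shares near those of all genes (29.1% and 27.4%), and Hsp90aa1 fell by 1.73 (SE 0.12). The count of falls in this list was 8 with the replicate number as a block.

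Genes of cholesterol synthesis and transport mostly fell in neonates, and this was the list in which neonates and adults differed most often in the downward direction. Of 27 members, 22 fell, 2 rose and 3 did not pass, with a median of -1.10. The age test called 18 members with a lower change in neonates and 2 with a higher one, against 5.15% and 10.2% of all genes. The adult median was -0.17. Sqle, the squalene epoxidase (ENSMUSG00000022351, chr15:59315077-59331192, plus strand), was at 86.9, 89.2, 94.2 and 98.7 CPM in neonatal SP8 and at 12.7, 11.7, 10.2 and 13.3 CPM in neonatal CD8, and the groups did not overlap. In adults it was at 34.8 ± 10.9 CPM in SP8 and 17.7 ± 5.69 CPM in CD8. The neonatal log2 fold change was -2.95 (SE 0.18), the adult one -0.98 (SE 0.17), and their difference -1.97 (SE 0.25, edgeR adjusted p = 1.31e-06).

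Cyp51 and Hmgcs1, which act at a later and an early step of the pathway, had age differences of -2.09 (SE 0.20) and -0.98. Srebf2, the transcription factor of the pathway, fell from 375 ± 28.1 to 197 ± 15.5 CPM in neonates and was 259 ± 23.6 and 316 ± 24.6 CPM in adults (difference -1.21, SE 0.11, edgeR adjusted p = 1.27e-09). The exporters moved the other way. Abca1 rose from 1.43 ± 0.693 to 10.6 ± 2.01 CPM in neonates and was 71.6 ± 5.87 and 54.3 ± 7.12 CPM in adults, and Abcg1 rose from 39.0 ± 1.53 to 94.8 ± 5.40 CPM against 145 ± 10.4 and 114 ± 11.8 CPM. Their age differences were 3.29 (SE 0.27) and 1.63 (SE 0.10). The adult levels of both exporters were above the neonatal ones in each tissue.

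**Figure D4:**
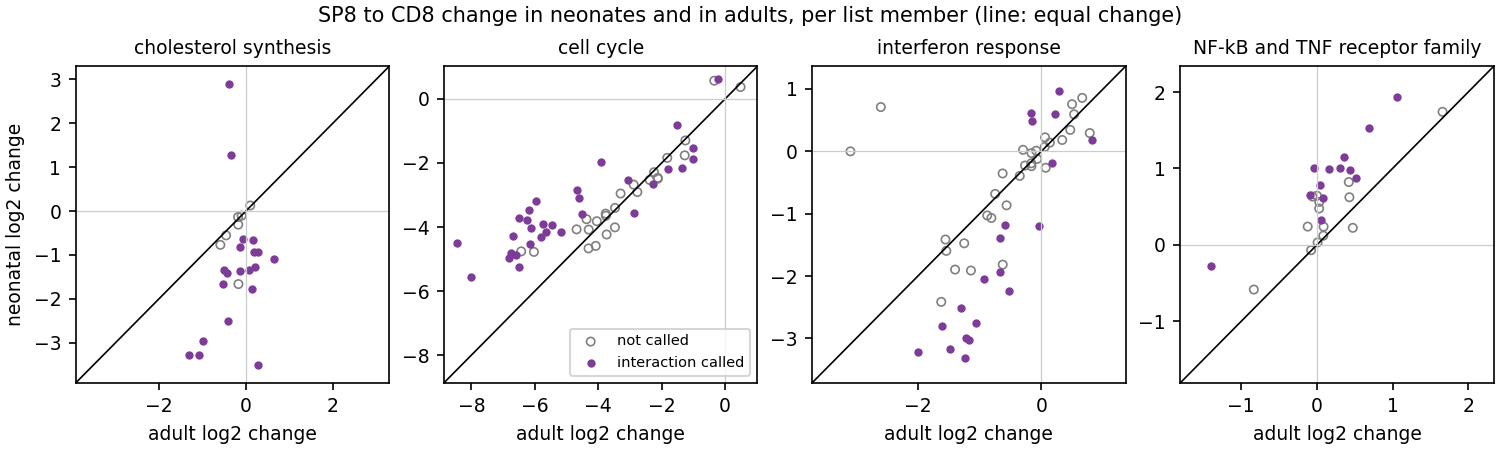
Log2 change from SP8 to CD8 in adults (horizontal) and neonates (vertical) for the tested members of 4 lists; the line marks equal change, filled points are members whose age difference passed the edgeR test, and the 2 changes share no library. Cholesterol genes lie below the line except Abca1, Abcg1, Mvd and Tm7sf2. Cell cycle members called lie mostly above it (25 of 31), and members called in the NF-kB list all lie above it (13 of 13, with 27 tested). Over all genes, 1678 of the 2525 called had a higher change in neonates.

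Components of T cell receptor signalling rose by small amounts. Of 34 members, 26 rose and 2 fell (Trat1 and Sh2d1a), with a median of 0.42, and 3 of the 26 reached 2-fold. These were Malt1, the paracaspase that links the receptor to NF-kB, at 1.22 (SE 0.08), and the phosphatases Ubash3b and Ptpn22, at 1.16 and 1.14. Prkcq, the kinase upstream of Malt1, went from 210.0 ± 12.5 to 416 ± 15.3 CPM. Cd3e and Lck were near the threshold, at 0.28 (edgeR adjusted p = 0.0436) and 0.17 (edgeR adjusted p = 0.0413). Cd3e did not pass without SP8 replicate 1, 3 or 4 or CD8 replicate 2 or 3 (edgeR adjusted p from 0.0768 to 0.236). Lck did not pass without SP8 replicate 1, 2 or 3 or CD8 replicate 2 or 3 (edgeR adjusted p from 0.0743 to 0.119). The adult median was 0.01. The age test called 18 of 34 members with a higher change in neonates and none with a lower one, against 10.2% and 5.15% of all genes. This concerns the change and not the level. The list summed on average to 8178 ± 73.5 CPM in neonatal SP8 and 10369 ± 308 CPM in adult SP8 (SD, n = 4 each). In CD8 the sums were 10805 ± 131 CPM in neonates and 10974 ± 344 CPM in adults.

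Among genes that the receptor induces, 16 of 32 rose, 4 fell and 12 did not pass. Of all genes 27.4% rose and 29.1% fell. Those that fell were Pdcd1, the inhibitory receptor PD-1 (14.1 ± 0.387 to 1.88 ± 0.540 CPM), the phosphatase Dusp4, Irf4 and Nr4a1, an early marker of receptor signal strength (59.9 ± 5.37 to 42.0 ± 2.61 CPM). The AP-1 genes Fos and Junb rose with wide spread, while Fosb, Fosl2, Jun and Jund did not pass. Fos was at 4.88, 11.5, 7.20 and 9.74 CPM in SP8 and at 16.5, 36.2, 20.9 and 29.6 CPM in CD8, and Junb at 74.1, 113, 89.4 and 107 CPM and at 181, 294, 232 and 323 CPM. In both genes, replicates 2 and 4 were the highest of each group and replicate 1 the lowest. The Fos change of 1.63 (SE 0.57, edgeR adjusted p = 0.0173) did not pass without neonatal SP8 replicate 1 (adjusted p = 0.0556) or neonatal CD8 replicate 2 (adjusted p = 0.0588).

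The NF-kB and TNF receptor family list rose in 21 of 27 members and fell in 1 (Tnfrsf1b; 2 with the replicate block), with a median of 0.63. Traf1, an adaptor of TNF receptors, was at 17.0, 13.9, 16.5 and 16.6 CPM in SP8 and at 57.6, 52.6, 67.7 and 67.9 CPM in CD8, a log2 fold change of 1.94 (SE 0.11, edgeR adjusted p = 4.82e-17). Ltb, the lymphotoxin beta chain, went from 296 ± 15.7 to 858 ± 2.64 CPM. The non-canonical subunits Relb and Nfkb2 rose by 0.99 and 0.78 and the canonical Nfkb1 by 0.33. Traf1 also rose in adults, by 1.06, from a higher level of 88.3 ± 5.01 CPM, and the age difference was 0.87 (SE 0.15, edgeR adjusted p = 7.27e-05). The age test called 13 of 27 members with a higher change in neonates and 0 with a lower one, against 10.2% and 5.15% of all genes. The list summed on average to 1667 ± 37.4 CPM in neonatal SP8 and 2495 ± 221 CPM in adult SP8. In CD8 the sums were 2849 ± 84.9 CPM in neonates and 3096 ± 239 CPM in adults.

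Receptors and signal carriers of cytokines rose in 24 of 33 members and fell in 6, with a median of 0.87. The largest were the interleukin 18 receptor chains. Il18rap was at 4.65, 2.26, 4.26 and 5.63 CPM in SP8 and at 77.5, 66.8, 94.6 and 92.6 CPM in CD8, and Il18r1 rose by 3.20 (SE 0.19). Stat4, which carries interleukin 12 signals, rose by 2.16 (SE 0.11), Il6ra by 1.81, Il4ra by 1.2 and Il2rb, the chain shared by the interleukin 2 and 15 receptors, by 1.26. Jak1, the kinase used by many of these receptors, went from 586 ± 31.2 to 1283 ± 67.9 CPM. The feedback inhibitors were divided. Socs3 rose by 2.58 (SE 0.13), whereas Cish fell by 1.55 (SE 0.26) and Socs1, at -0.23, did not pass. Il2ra, the marker CD25, fell from 3.80 ± 0.450 to 0.772 ± 0.382 CPM.

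Genes associated with effector and memory-like CD8 T cells rose in 26 of 37 members and fell in 6, with a median log2 fold change of 1.44, or 1.27 with 4 members taken at their detection floor. Ccl5, a chemokine of memory cells (ENSMUSG00000035042, chr11:83525778-83530518, minus strand), was at 0.632, 0.655, 1.95 and 1.41 CPM in SP8 and at 38.0, 35.6, 47.7 and 56.4 CPM in CD8. Its log2 fold change was 5.20 (SE 0.26, edgeR adjusted p = 2.87e-18). Tbx21, the factor T-bet, was at 5.40, 4.11, 6.30 and 6.28 CPM in SP8 and at 50.2, 46.6, 59.6 and 57.8 CPM in CD8, and Eomes, its relative, at 34.2, 24.7, 33.4 and 37.5 CPM and at 152, 141, 174 and 168 CPM. Both groups were separate for each of these genes. Klrd1, a subunit of the CD94/NKG2 receptors, went from 15.4 ± 2.53 to 222 ± 30.5 CPM, and the cytolytic genes Nkg7 and Prf1 rose by 1.65 and 1.40.

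Other members of the list fell or stayed low. Gzma, a granzyme, fell from 99.0 ± 15.5 to 11 ± 3.52 CPM, Anxa2 by 2.61 and Lgals1 by 0.65. Gzmb was at 2.98 CPM in SP8 and 2.97 CPM in CD8 and Itgae, which anchors T cells in epithelia, at 225 CPM in both, and neither passed. Itgae fell in adults, from 529 ± 46.8 to 191 ± 17.8 CPM, and the age difference was 1.47 (SE 0.19, edgeR adjusted p = 2.06e-06). In adults 19 members of the list rose and 8 fell, with a median of 1.007. The age test called 14 of 37 list members with a higher change in neonates and 3 with a lower one. Of all genes it called 10.2% and 5.15%. Tbx21, Eomes and Prf1 were not called, with differences of 0.0885, -0.222 and -0.0235 (edgeR adjusted p = 0.905, 0.582 and 0.978). These 3 genes rose in adults by 3.18, 2.51 and 1.43. Nkg7 was called with a higher change in neonates. Ccl5 rose from a lower level in neonates than in adults (8.13 ± 1.64 to 63.8 ± 5.55 CPM), with a difference of 2.22 (SE 0.33). Klrd1 reached a higher level in neonatal CD8 than in adult CD8 (147 ± 10.9 CPM), with a difference of 1.72 (SE 0.17). Cd160, an inhibitory receptor, rose from 23.8 ± 1.67 to 86.3 ± 8.49 CPM in neonates and was 22.8 ± 2.07 and 20 ± 2.04 CPM in adults (difference 2.05, SE 0.14, edgeR adjusted p = 8.70e-13). Of the inhibitory receptors, 8 of 16 rose, among them Vsir at 1.6 and Btla at 1.17, and 5 fell, with Pdcd1 the lowest. Of all genes 27.4% rose and 29.1% fell.

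Markers of other cells rose with these genes in part. The NK list rose in 7 of 10 members (median 2.48, or 1.59 with 4 members at their floor) and summed to 27.1 to 39.2 CPM in SP8 and 155 to 193 CPM in CD8, of which Eomes made 32.4 and 159 CPM on average, and Ncr1, the defining NK receptor, had 0 counts in all 8 libraries. The myeloid and dendritic list rose in 9 of 20 tested members and fell in 0, against 27.4% and 29.1% of all genes. This list summed to 65.8 to 76.1 CPM in SP8 and 122 to 180 CPM in CD8. Its largest rises were class II genes, H2-Aa (0.126 ± 0.114 to 10.4 ± 3.83 CPM) and H2-Eb1 (0.466 ± 0.306 to 14.3 ± 4.74 CPM), and Itgax (1.26 ± 0.40 to 18.3 ± 3.5 CPM), while Adgre1 and Lyz2 were at 0.118 and 0.426 CPM in CD8. Of the B cell markers 3 of 15 rose and 1 fell, against 27.4% and 29.1% of all genes. The B cell list summed to 399 to 428 CPM in SP8 and 559 to 613 CPM in CD8. Ms4a1 was at 0.0834 CPM in CD8, and Ighm, at 392 and 523 CPM, did not pass in the fit of all libraries. Ighm passed with no filter, with only the SP8 and CD8 libraries and with the replicate block (edgeR adjusted p = 3.96e-05, 5.43e-06 and 2.98e-09). It also passed under limma-voom (adjusted p = 0.0473). Gamma-delta markers fell in 6 of 10 and rose in 2 (1 with the replicate block), against 29.1% and 27.4% of all genes. Sox13 changed by -4.68 (SE 0.28) and Cd163l1 by 2.01 (SE 0.13). The gamma-delta list summed to 243 to 252 CPM in SP8 and 249 to 301 CPM in CD8, so its summed level did not fall. The part of such cells in the changes of H2-Aa, H2-Eb1, Cd74 and Itgax was not tested.

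Interferon response genes fell more often than they rose. Of 52 members, 30 fell, 9 rose and 13 did not pass, with a median of -0.37. Ifit3, an antiviral protein gene induced by interferon, was at 49.1, 43.0, 45.8 and 50.8 CPM in SP8 and at 8.13, 3.37, 5.22 and 7.09 CPM in CD8, Rsad2 at 13.3, 11.1, 11.4 and 10.3 CPM and at 1.42, 0.509, 0.660 and 2.22 CPM, and Isg15 at 40.3, 47.8, 50.9 and 43.1 CPM and at 9.95, 7.95, 5.88 and 10.6 CPM. Ifit1 fell by 2.79 (SE 0.24). Members that rose were Irf1, Ifi203, Ifi213, Ddx58 and 5 guanylate-binding protein genes (Gbp2, Gbp3, Gbp4, Gbp8 and Gbp9), with Gbp8 the highest at 0.96 (SE 0.11). The list also fell in adults, where 28 members fell and 8 rose, with a median of -0.545. The age test called 16 of 52 members with a lower change in neonates and 4 with a higher one, against 5.15% and 10.2% of all genes. Ifit3 and Rsad2 fell less in adults, by 1.22 and 1.24, with differences of -1.78 (SE 0.29, edgeR adjusted p = 3.71e-05) and -2.08 (SE 0.38, edgeR adjusted p = 0.000143). Their adult CD8 levels were 31.3 ± 10.7 and 6.70 ± 2.88 CPM. For Isg15 the age difference of -0.79 did not pass (edgeR adjusted p = 0.0532). It passed with the replicate block (adjusted p = 0.0247), DESeq2, its size factors, limma-voom or no filter, and without adult SP8 replicate 2, adult CD8 replicate 3, neonatal SP8 replicate 1 or neonatal CD8 replicate 4 (adjusted p from 0.000953 to 0.0491).

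GAAANNGAA, the core of the interferon-stimulated response element, was in 27 of 45 windows of the list (60%, against 8.56% of all windows), for 37 of its 53 genes. It was in the windows of 12 of 19 matched genes that fell and 5 of 6 that rose, so that the letters were held by genes of both directions. The stretches of Ifit1, Ifit3 and Isg15 are shown because these 3 genes hold 3 copies each before the start, in capitals; overlapping copies run together, and in Ifit1 and Ifit3 the letters lie on the other strand, so the printed capitals are their reverse complement. They lie at chr19:34640772-34640821 and chr19:34583366-34583443 on the plus strand and at chr4:156200868-156200904 on the minus strand.
Ifit1: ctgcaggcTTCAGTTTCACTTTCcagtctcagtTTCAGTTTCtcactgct
Ifit3: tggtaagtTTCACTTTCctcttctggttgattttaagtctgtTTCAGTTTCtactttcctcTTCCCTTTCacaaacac
Isg15: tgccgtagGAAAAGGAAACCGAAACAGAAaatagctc

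Class I antigen presentation genes rose in 10 of 16 and fell in 3, against 27.4% and 29.1% of all genes. H2-K1 and H2-D1, the class I heavy chains, whose reads can be shared with other H2 genes, went from 1099 ± 103 to 2992 ± 206 CPM and from 1002 ± 67.0 to 2265 ± 138 CPM. B2m, their light chain, rose by 0.75 (SE 0.10) and the class I transactivator Nlrc5 by 0.71 (SE 0.10). The 3 that fell were the endoplasmic reticulum folding genes Canx, Pdia3 and Calr.

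Survival and death regulators rose in 21 of 33 members and fell in 4, against 27.4% and 29.1% of all genes. The Gimap genes, small GTPases needed for the survival of peripheral T cells, made up 8 of the 21. Gimap4 was at 223, 175, 211 and 193 CPM in SP8 and at 964, 790.0, 979 and 909.7 CPM in CD8, and Gimap3 and Gimap6 rose by 2.54 (SE 0.12) and 2.10 (SE 0.10). Bbc3, the death-promoting protein PUMA, rose from 7.80 ± 0.801 to 53.8 ± 5.87 CPM. Of the survival genes, Bcl2 rose by 0.47 (SE 0.09) while Bcl2l1, the Bcl-xL of DP cells, fell by 1.26 (SE 0.10). In the glucocorticoid list Fkbp5 fell by 2.30 (SE 0.09) while Tsc22d3 and Sgk1 rose by 1.33 and 1.80. In the fetal list 4 of 12 fell, near the 29.1% of all genes, and 1 rose (Arid3a). There the RNA-binding protein gene Igf2bp3 fell from 72.6 ± 3.75 to 49.1 ± 2.10 CPM. H19, an imprinted RNA of fetal tissue, fell from 17.5 ± 2.60 to 0.801 ± 0.785 CPM.

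**Figure D5:**
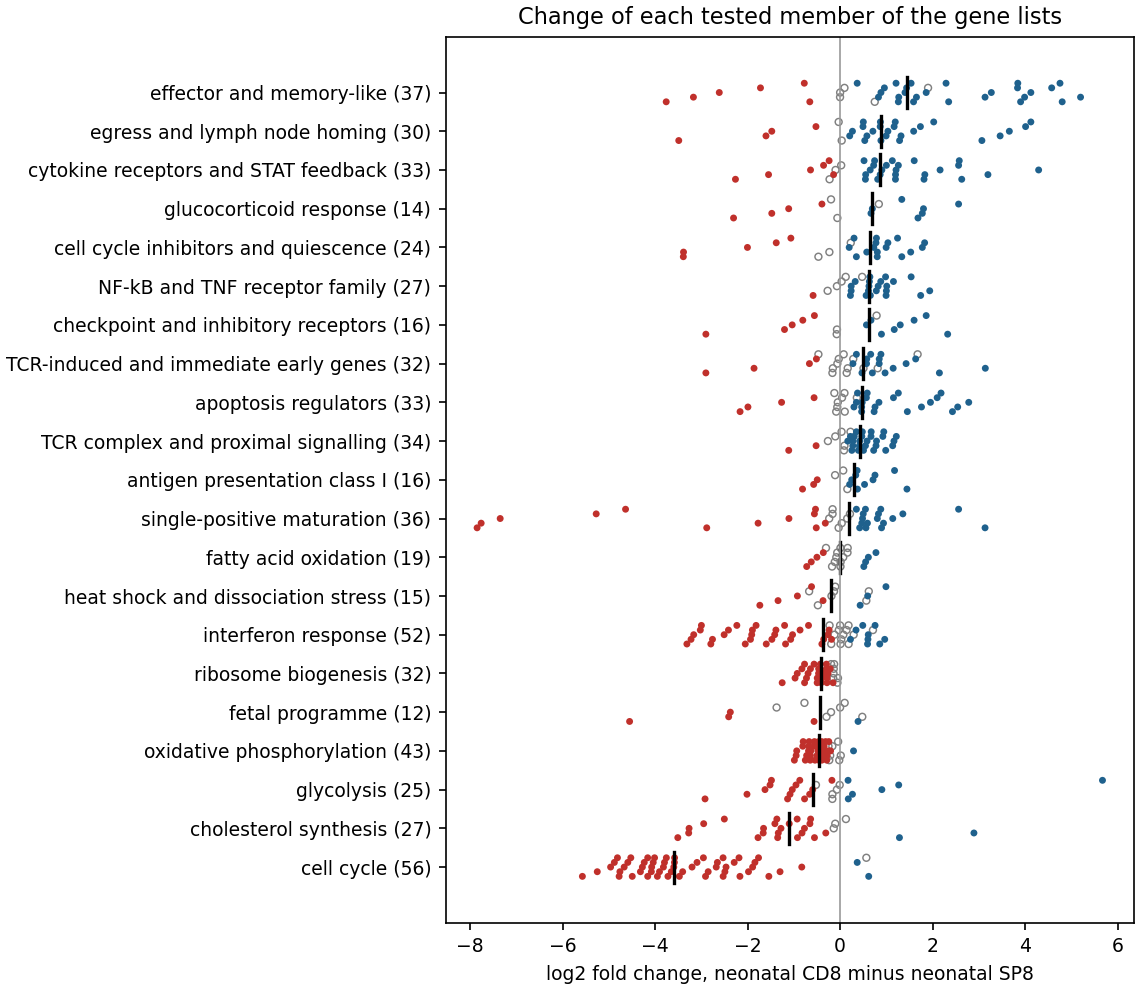
Log2 fold change from neonatal SP8 to neonatal CD8 of each tested member of 21 gene lists (number tested in brackets), ordered by median (black bar); blue members rose, red members fell and open members did not pass the edgeR test. The cell cycle list lies lowest (median -3.59) and the effector list highest (1.44), and members of most lists lie on both sides of 0.

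Among genes that reached 10 CPM in 1 of the 2 groups and whose libraries did not overlap, the largest falls included Syt13, Gpr162, Ybx2, Tnfrsf8, Rapgef3, Fads2, Arsi, Dnph1, Ly6d, Rag2 and Nwd1. Syt13, a synaptotagmin, was at 69.9, 76.6, 70.3 and 82.2 CPM in SP8 and held at most 2 counts in a CD8 library, at least 353-fold lower. Tnfrsf8, the receptor CD30 of the medulla, was at 28.8, 30.3, 29.4 and 34.5 CPM in SP8 and at least 145-fold lower in CD8. The 12 largest rises were H2-Aa, Ccl5, Ifngas1, H2-Eb1, Tent5a, H2-Q6, Samd3, Il18rap, Cxcr3, Lrrk1, Cxcr5 and Ctla2a. Tent5a, a poly(A) polymerase, was at 2.41, 1.67, 3.53 and 2.98 CPM in SP8 and at 68.2, 60.6, 68.3 and 72.1 CPM in CD8. Samd3 went from 1.77 ± 0.865 to 38.2 ± 7.71 CPM. Ifngas1 is antisense RNA beside Ifng, and since the use of strand in counting is not given in the sources used here, its counts are uncertain, as are those of H2-Q6 and Ctla2a, which have near-identical relatives. Lars2 passed with neonatal CD8 replicate 4 (edgeR adjusted p = 0.000971) and did not without it (adjusted p = 0.252). Mir6236, at 3.27 (edgeR adjusted p = 0.00321), was at 0.58 without that library and did not pass (adjusted p = 0.417).

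Over all genes, the age test called 2525 (15.3%), of which 1678 had a higher change in neonates and 847 a lower one. The lowest fitted values included those of Evc, Snrpn, Stc2, Wnt5b, Il9r, Cdc42bpa and Utp14b. For Evc, a cilium gene, the neonatal groups were alike within their spread (18.0 ± 1.89 CPM in SP8 and 16.7 ± 1.65 CPM in CD8), and adult SP8 had 0 CPM in each library with 1.47 ± 0.383 CPM in adult CD8, so that its fitted value depends on the prior count. With adult SP8 set at its floor of 0.186 CPM, the difference of log2 mean CPM was at most -3.09. Snrpn, an imprinted splicing gene, went from 10.5 ± 1.27 to 23.0 ± 1.28 CPM in neonates and was 0.0131 and 1.55 CPM in adults. Adult SP8 was at the floor for Snrpn and for Stc2, and set at it they differed by at most -1.93 and -1.66. Wnt5b fell by 2.46 (SE 0.22) in neonates and did not pass in adults, at 0.41. Il9r, an interleukin 9 receptor chain, was at least 77.1-fold lower in neonatal CD8, and with that group at its floor the age difference was at most -1.33. Beside the mitotic genes, the highest fitted values belonged to Adamtsl2 (4.79, SE 0.45, with 0.168 CPM in adult CD8), H2-Aa (3.99, SE 0.85, with 0.126 CPM in neonatal SP8) and the histone gene Hist1h2ag, whose copies are near-identical and whose difference was at least 0.30 with adult CD8 set at its floor. Klf2 and S1pr1 were not among the genes called by the age test, with differences of -0.11 (SE 0.24, edgeR adjusted p = 0.84) and 0.23 (SE 0.16, edgeR adjusted p = 0.37), and neither was Rag1, at 0.50 (SE 0.63, edgeR adjusted p = 0.686).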

How the data were processed

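The deposited table held read counts per gene that the authors made from poly(A) RNA-seq, for 53700 genes of GENCODE mouse release 21, 97.1% with a symbol. Reads were trimmed with Trim Galore and aligned with STAR 2.7.10a to mm10, per the submitters' processing notes; the counting tool and its use of strand are not given in the sources used here. Genes were kept with edgeR 4.0.16 (filterByExpr, minimum count 10, total 15), scaled by TMM and fitted with the robust quasi-likelihood model on group means over all 31 libraries in R 4.3.3. The contrasts were neonatal CD8 minus SP8 and that change minus the adult one, adjusted by Benjamini-Hochberg over 16461 genes. The script was tested on simulated data.

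Members and gene lists were chosen with earlier results of these data known. The text names members of the lists, 12 rises and 12 falls ranked by size (reaching 10 CPM in either group, libraries not overlapping) and the 8 highest and 8 lowest age differences. Predicted genes, pseudogenes, mitochondrial genes and receptor segments were left out of the ranked sets. Alternatives were other scalings, no filter, fewer libraries, limma-voom (limma 3.58.1), DESeq2 1.42.0, a 2-fold minimum and leaving out each library. Same-numbered neonatal libraries deviated together weakly (r from 0.104 to 0.13), in a range that overlapped that of other numbers (-0.119 to 0.114). In adults the ranges did not overlap, with r from 0.0815 to 0.184 for the same number and from -0.163 to 0.0365 for other numbers. The main fit, also that of the age difference, did not use the number. The criterion was 0.1, so the replicate number, taken from the labels, was also fitted as a block. A few genes that the rule would name are not reported here.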

Additional observations from a re-analysis of the deposited data

Results flagged for a closer look

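Of 322 groups of 4 libraries looked at, those below had 1 library flagged as apart from the others. Chance flags about 1 in 20 groups, so a list of about this length can arise by chance. A flag is relative to the spread of the other libraries and can rest on a small gap. Pdcd1 in SP8, for example, was flagged with a range of 13.5 to 14.3 CPM. Neonatal CD8 replicate 4 was highest for Lars2 at 22961 CPM, Mir6236 at 2033 CPM, Gm15564 at 1725 CPM and Prl3b1 at 5.38 CPM, and SP8 replicate 4 for Prl3b1 at 2.06 CPM. The highest SP8 library also lay apart for Tpbpa (0.866 CPM), Trat1 (59.4 CPM) and Ifngas1 (0.758 CPM), and the lowest for Pdcd1 (13.5 CPM), Traf1 (13.9 CPM), Ighm (370.4 CPM) and Samd3 (0.477 CPM). The highest CD8 library lay apart for Txnip (592 CPM), Gpr162 (0.0636 CPM) and Tnfrsf8 (0.256 CPM), and the lowest for Ptcra (0.0660 CPM), Ifi203 (209.95 CPM), Pa2g4 (230.4 CPM) and Cd74 (14.4 CPM).

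The neonatal change minus the adult change, on the log2 scale, passed the edgeR test for these genes. Positive values were 1.13 for Ccr9, 1.75 for Sox4, 1.47 for Itgae, 1.23 for Egr1, 0.87 for Traf1, 1.49 for Top2a, 2.78 for Mki67, 2.76 for Ccnb2, 1.72 for Klrd1, 2.22 for Ccl5, 2.05 for Cd160, 3.29 for Abca1 and 1.63 for Abcg1. Negative values were -1.70 for Cxcr4, -1.53 for Dntt, -2.08 for Rsad2, -1.18 for Ifit1, -1.78 for Ifit3, -1.97 for Sqle, -1.21 for Srebf2, -0.98 for Hmgcs1 and -2.09 for Cyp51. Fitted values of genes with a group at the floor of 3 counts per library depend on the prior count and are neither sizes nor bounds. This holds for Kif14, Pif1, Ska1 and Hist1h2ag (adult CD8), Evc, Snrpn and Stc2 (adult SP8) and Il9r (neonatal CD8), whose differences with that group set at its floor were at least 3.30, 2.56, 0.63 and 0.30 and at most -3.09, -1.93, -1.66 and -1.33. Among the ranked genes the fitted values were 3.99 for H2-Aa, 5.12 for Kif14, 4.79 for Adamtsl2, 4.11 for Kif4, 3.97 for Bub1, 3.74 for Pif1, 3.67 for Ska1 and 3.38 for Hist1h2ag, and -7.78 for Evc, -4.97 for Snrpn, -3.47 for Stc2, -2.87 for Wnt5b, -2.83 for Il9r, -2.79 for Cdc42bpa and -2.37 for Utp14b.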

How the results depend on the processing

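With 1 library left out in turn, total calls ranged from 8737 to 9045 (higher 4032 to 4784, lower 4196 to 4759) and age-difference calls from 2181 to 2563. Of 161 genes given values in the text or ranked by the naming rule, 153 were called, and 151 of the 161 kept direction and side of the threshold in every refit. For the age difference this held for 38 of 42 genes. The 2-fold minimum was not part of these 2 counts, and named genes that changed by less than 2-fold do not meet it. DESeq2 called 1279 negative age differences, against 847. With it 57.1% of calls were positive, against 66.5%, and with DESeq2 size factors in edgeR 57.8% were. The call of a lower Il9r change in neonates was lost without adult CD8 replicate 2 (edgeR adjusted p = 0.133) and that of Pif1 under limma-voom (adjusted p = 0.127). The cause of these changes was not tested. Depth limits genes at the floor of 3 counts per library, whose folds are bounds.

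The labels number the replicates, and whether same-numbered libraries share animals is not given in the sources used here. With the number as a replicate block, 9837 genes were called, with 3116 age differences. The NF-kB list then had 2 falls, the heat shock list 8 falls and the gamma-delta markers 1 rise; no other list's neonatal count moved by over 1.5 times. For the age difference, the block called 11 cell cycle, 6 heat shock and 1 NF-kB members with a lower change in neonates, among others.

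A 2-fold minimum left 3853 genes (1627 higher and 2226 lower) and 803 age differences (535 higher and 268 lower). Under it, the egress list had 13 rises, single-positive maturation 4 rises, TCR signalling 3 rises and 1 fall, TCR-induced genes 5 rises and 2 falls, and the NF-kB list 6 rises and 0 falls. The cytokine receptors had 15 rises and 2 falls, the cell cycle 0 rises, quiescence 6 rises, the interferon response 0 rises and antigen presentation class I 2 rises and 0 falls. The checkpoint receptors had 5 rises and 3 falls, apoptosis regulators 10 rises, glycolysis 2 rises and 8 falls, oxidative phosphorylation 0 rises and 0 falls, cholesterol synthesis 14 falls and fatty acid oxidation 0 rises and 0 falls. Ribosome biogenesis had 1 fall, the fetal programme 0 rises, heat shock 0 rises and 2 falls, double-positive markers 1 rise, erythroid markers 0 falls and stroma markers 0 rises.

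With only the SP8 and CD8 libraries compared, the NF-kB list had 2 falls. With no filter on low counts, glycolysis had 3 rises and the B cell markers 5 rises and 2 falls. The B cell markers had 2 falls and the erythroid markers 1 rise with DESeq2, and the gamma-delta markers 1 rise with limma-voom. Leaving out 1 library gave 3 to 6 rises in glycolysis (3 without SP8 replicate 2), 0 to 1 in oxidative phosphorylation and 1 to 2 in the gamma-delta markers. It gave 1 to 2 falls in the B cell markers, and 1 to 2 rises and 1 to 2 falls in the erythroid markers.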
